A study of Mus musculus with 6 samples.

Results

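The semaphorins, plexins and neuropilins were examined as a family of guidance ligands and receptors in muscle stem cells, the precursors that rebuild muscle fibres after injury. The family was chosen with earlier results of these data known, and Sema3e and its receptor Plxnd1 were its pair of interest. Its members were then taken by symbol, after Ensembl gene IDs had been matched to mouse symbols. They are the genes named Sema3a to Sema7a, Plxna, Plxnb, Plxnc, Plxnd and Nrp. This gave 31 genes of the 55487 in the table, namely 20 semaphorins, 9 plexins and 2 neuropilins. The 3 tested libraries came from mice labelled Setdb1 knockout (KO) and treated with tamoxifen. They were set against 3 libraries from mice labelled wild type and treated with oil. Library names hold SETDB1 in both groups. All mice were 10 weeks old, and all cells were taken 60 h after cardiotoxin (CTX), a snake venom toxin that destroys muscle fibres. The product of Setdb1 places methyl groups on lysine 9 of histone H3, which marks silent chromatin. Genotype and tamoxifen changed together, so their effects cannot be told apart, and the sources used here do not give the recombinase, its promoter or the deleted exon. By their labels the 3 libraries of each group are biological replicates, and it is not said whether cells of several mice were pooled.

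Semaphorins are secreted or membrane-bound ligands that steer axons, vessels and migrating cells, and plexins are their main receptors. A plexin carries a GTPase-activating domain inside the cell, which acts on small GTPases of the Ras and Rap type and so loosens adhesion and remodels actin. Most secreted class 3 semaphorins need a neuropilin as a binding partner beside the plexin. Sema3e is the known exception, since it binds Plxnd1 directly. In muscle, satellite cells of rat and mouse are known to release Sema3a after injury, a signal to motor nerve endings.

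Library totals ran from 4052569 to 5178823 counts in KO libraries and from 4568845 to 5690844 in control libraries, and a single ribosomal RNA gene took 28.6% to 38.4% of them. Setdb1 itself fell to 14.6 ± 1.88 normalised CPM (counts scaled by library size) in KO cells, against 35.8 ± 4.26 CPM in control cells (mean ± SD, n = 3 each; edgeR adjusted p = 2.092e-04). All 12 muscle stem cell markers on the list were detected well enough to be tested, and Pax7, which defines these cells, was at 26.9 ± 6.56 CPM in KO cells and 26.9 ± 5.70 CPM in control cells (SD, n = 3 each). Myod1, the myogenic regulator of activated cells, was the 1 marker of the list that passed, at 292 ± 63.4 CPM in KO cells and 142 ± 5.49 CPM in control cells (SD, n = 3 each; log2 fold change 1.04, edgeR adjusted p = 7.791e-04), and DESeq2 and limma-voom called it too. Before adjustment, 5 of the 12 were higher and 0 lower at a limit of 0.05, with a median log2 fold change of 0.20, beside 10.1% higher and 7.64% lower over all genes tested. The 12 markers summed to 1494 to 1928 CPM in KO libraries and 1306 to 1401 CPM in control libraries, without overlap, and the part of this in the results below was not tested. Neutrophil transcripts split the libraries across the groups. The summed neutrophil markers were at 5.85, 938 and 308 CPM in KO libraries 1, 2 and 3, and at 4.61, 3.97 and 2307 CPM in control libraries 1, 2 and 3.

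The family showed 2 strong increases and no decrease that passed the test. Sema3e, the ligand of Plxnd1, was 6.42-fold higher in KO cells, and Sema5a, a membrane-bound semaphorin, was 5.87-fold higher. Of the 31 members, 20 had enough counts to be tested, 2 of these passed upward and 0 downward, at an adjusted p below 0.05. Before adjustment, 4 tested members were higher and 2 lower at a limit of 0.05, beside 10.1% and 7.64% of all genes tested. DESeq2 and limma-voom called the same 2 genes and no other member. Over all 11224 genes tested, 2.83% were called, 2.22% higher and 0.615% lower. Sema5a passed the low-count filter through the KO libraries, with 3 KO libraries and 1 control library above its minimum of 2.08 CPM, so the tested members are not a neutral sample of the family. The other 18 tested members had log2 fold changes between -0.63 and 0.73, and the median over the 20 was 0.04, beside 0.01 over all genes tested.

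**Figure D1:**
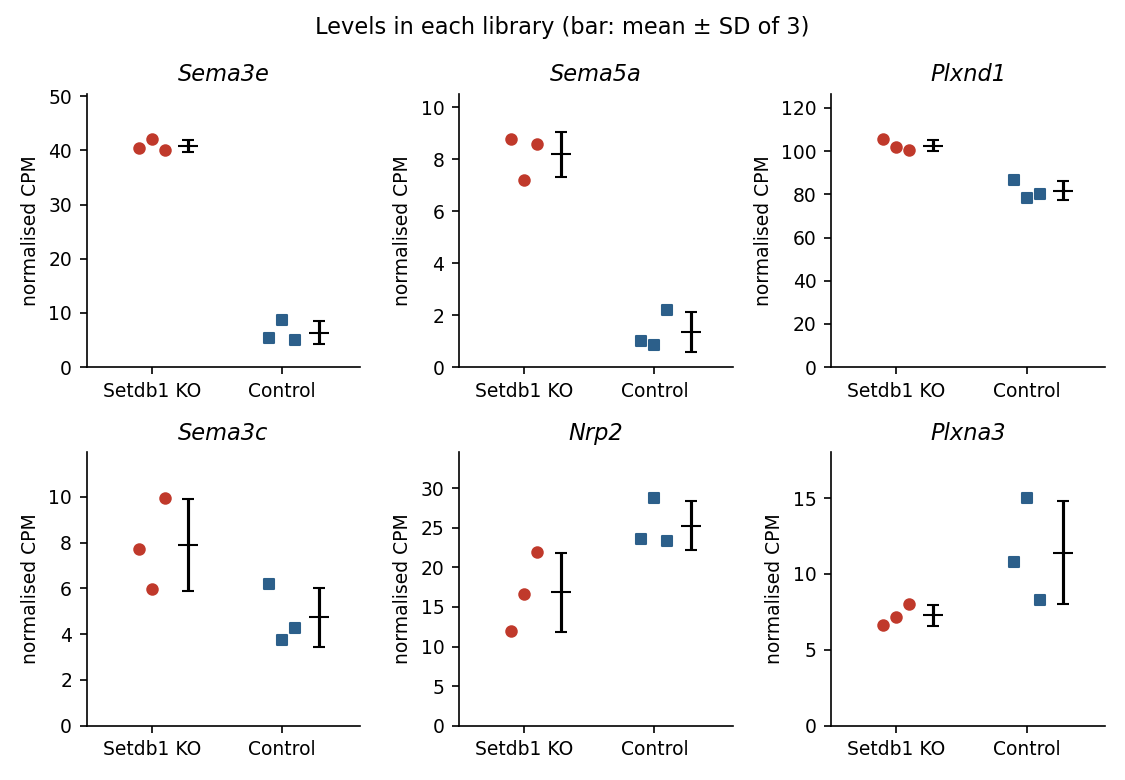
Normalised CPM (vertical axes, starting at 0) of 6 members in each Setdb1 KO library (red circles, left) and each control library (blue squares, right), with the mean ± SD of 3 libraries beside the points. Sema3e and Sema5a are far apart between the groups, while Plxnd1, Nrp2 and Plxna3 are separated by small gaps and Sema3c overlaps.

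Sema3e (ENSMUSG00000063531, chromosome 5, 14025276 to 14256689, plus strand, GRCm38, protein coding) is a secreted class 3 semaphorin best known for repelling growing vessels through Plxnd1. It had 152, 205 and 205 counts in the KO libraries, against 27, 42 and 27 in the control libraries. Normalised, it was at 40.4, 42.1 and 40.1 CPM in KO cells, against 5.41, 8.77 and 4.99 CPM in control cells. All KO libraries were close to each other and far above every control library. The means were 40.9 ± 1.08 CPM in KO cells and 6.39 ± 2.07 CPM in control cells (SD, n = 3 each). The log2 fold change was 2.68 (SE 0.19, 95% interval 2.27 to 3.09, edgeR adjusted p = 8.091e-07). Only 0.14% of the 50-base words in its annotated transcripts occurred in transcripts of other genes, and no exon of another gene overlapped its exons.

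Sema5a (ENSMUSG00000022231, chromosome 15, 32244810 to 32696341, plus strand) is a transmembrane semaphorin with thrombospondin repeats. It had 33, 35 and 44 counts in the KO libraries, against 5, 4 and 12 in the control libraries. These are 8.78, 7.19 and 8.60 CPM in KO cells, against 1.00, 0.84 and 2.22 CPM in control cells. The groups did not overlap, though the control values rest on few reads. The log2 fold change was 2.55 (SE 0.37, 95% interval 1.75 to 3.35, edgeR adjusted p = 0.001064), from means of 8.19 ± 0.87 CPM in KO cells and 1.35 ± 0.75 CPM in control cells (SD, n = 3 each). The ratio of summed counts was 5.90, with an exact 95% interval of 3.68 to 9.90 that covers counting error only.

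The promoter windows of the 2 genes that rose are shown to compare their base composition. Each window runs from 250 bases before to 50 bases after the RefSeq start on GRCm38.p6, plus strand, 5′ to 3′, and capitals mark GGGCGG, the GC box, searched on both strands.
Sema3e, chr5:14025026-14025325: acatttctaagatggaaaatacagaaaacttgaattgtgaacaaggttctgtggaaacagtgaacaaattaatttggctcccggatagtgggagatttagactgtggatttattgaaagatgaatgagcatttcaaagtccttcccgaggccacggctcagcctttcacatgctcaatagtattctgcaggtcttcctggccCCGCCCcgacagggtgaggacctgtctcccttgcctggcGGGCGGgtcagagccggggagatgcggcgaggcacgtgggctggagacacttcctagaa
Sema5a, chr15:32244563-32244862: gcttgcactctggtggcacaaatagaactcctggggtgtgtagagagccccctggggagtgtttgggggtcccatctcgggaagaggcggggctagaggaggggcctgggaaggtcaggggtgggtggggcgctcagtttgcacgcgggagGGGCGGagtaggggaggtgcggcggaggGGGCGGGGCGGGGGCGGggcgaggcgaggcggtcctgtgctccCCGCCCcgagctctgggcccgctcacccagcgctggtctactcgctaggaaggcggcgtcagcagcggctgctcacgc

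The Sema5a window is the more GC-rich, with 71.3% G or C and 23 CG dinucleotides, while the Sema3e window has 50.7% and 11. The median promoter window holds 52.7% and 7. GGGCGG occurs at 2 places in the Sema3e window and at 5 places in the Sema5a window, 3 of which overlap or touch in 1 run, and 35.6% of 32817 mouse promoter windows of this length hold it. The E-box CANNTG, read the same on both strands, occurs at 2 places in the Sema3e window, starting 84 bases before and at base 24 after the start, and at none in the Sema5a window, beside 72.3% of all windows. Neither window holds CAGCTG, a form of the E-box that occurs in 16.3% of windows, or TATAAA, which occurs in 13.6%. Windows were found for 26 of the 31 members, 37 windows in all, of which 27 hold GGGCGG and 0 hold TATAAA. These matches describe the letters only.

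Plxnd1 (ENSMUSG00000030123, chromosome 6, 115954811 to 115995005, minus strand), the receptor of Sema3e, was among the leading members in both groups and did not pass the test. It was at 106, 102 and 100.4 CPM in KO libraries, against 86.5, 78.3 and 80.4 CPM in control libraries, so the groups did not overlap. The means were 103 ± 2.66 CPM in KO cells and 81.7 ± 4.28 CPM in control cells (SD, n = 3 each). The log2 fold change was 0.33 (SE 0.11, 95% interval 0.10 to 0.56). The edgeR p was 0.008772 before adjustment and 0.1308 after it. On the linear scale this interval runs from 1.07-fold to 1.47-fold.

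The ligand and its receptor stood in a different proportion in the 2 groups. Per kilobase of exon, Sema3e was at 4.40 CPM in KO cells and 0.69 CPM in control cells, and Plxnd1 was at 14.1 CPM in KO cells and 11.2 CPM in control cells. Ordered by level per kilobase among the 31 members, Sema3e was number 8 in KO cells and number 16 in control cells, and Plxnd1 was number 3 in KO cells and number 4 in control cells. In these bulk libraries, a change in the number of cells that make a transcript and a change in RNA per cell cannot be told apart.

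**Figure D2:**
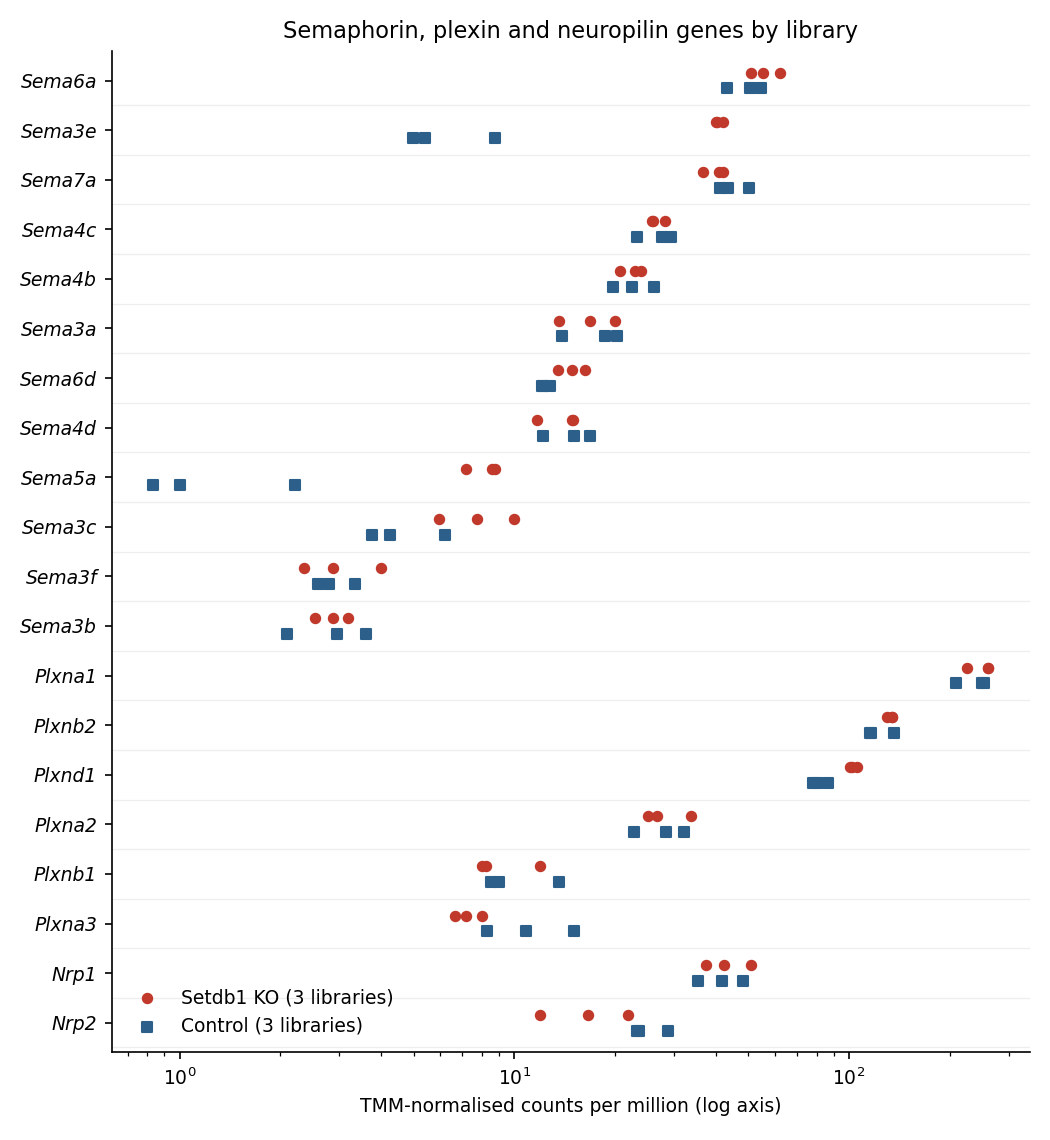
Normalised CPM (log axis) of the 20 tested members in each Setdb1 KO library (red circles, above) and each control library (blue squares, below), ordered by KO level within semaphorins, plexins and neuropilins. Sema3e and Sema5a are the rows in which the groups lie far apart, and Plxna1 has the highest values, with means of 249 CPM in KO cells and 238 CPM in control cells.

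No other class 3 semaphorin passed the test. Sema3a, the secreted ligand that repels axons through Nrp1, was at 13.6, 16.8 and 19.9 CPM in KO libraries, against 18.6, 20.2 and 13.9 CPM in control libraries (log2 fold change -0.05, 95% interval -0.46 to 0.36, edgeR adjusted p = 0.919). Sema3c, which guides neural crest and cardiac outflow cells, was at 7.71, 5.95 and 9.97 CPM in KO libraries, against 6.21, 3.76 and 4.25 CPM in control libraries. Its groups overlapped, and its log2 fold change of 0.73 (SE 0.30) did not pass (edgeR adjusted p = 0.214).

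Sema3b and Sema3f, a neighbouring pair on chromosome 9, were low in both groups, with log2 fold changes of -0.02 (95% interval -0.82 to 0.79) and 0.06 (95% interval -0.74 to 0.86). Sema3b was at 3.19, 2.87 and 2.54 CPM in KO libraries, against 3.60, 2.09 and 2.96 CPM in control libraries. Sema3f was at 3.99, 2.87 and 2.35 CPM in KO libraries, against 2.80, 3.34 and 2.59 CPM in control libraries. Their intervals leave room for changes of up to 1.8-fold.

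As a share of all class 3 semaphorin counts, Sema3e made up 57.4%, 57.3% and 52.2% in KO libraries 1 to 3, against 14.0%, 22.2% and 17.2% in control libraries 1 to 3. The exact 95% binomial intervals of the KO libraries began at 47.1% or above, and those of the control libraries ended at 28.8% or below. These intervals cover counting error within a library only, not the spread between libraries. The share and the class 3 sum both contain the Sema3e counts given above, so they are not separate results. Summed over the 7 class 3 genes, transcripts were at 70.5 to 76.8 CPM in KO libraries and 29.0 to 39.5 CPM in control libraries. Per kilobase of exon, Sema3e had the highest class 3 level in KO cells, at 4.40 CPM beside 1.21 CPM for Sema3a, while Sema3a had the highest in control cells, at 1.27 CPM beside 0.69 CPM for Sema3e.

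**Figure D3:**
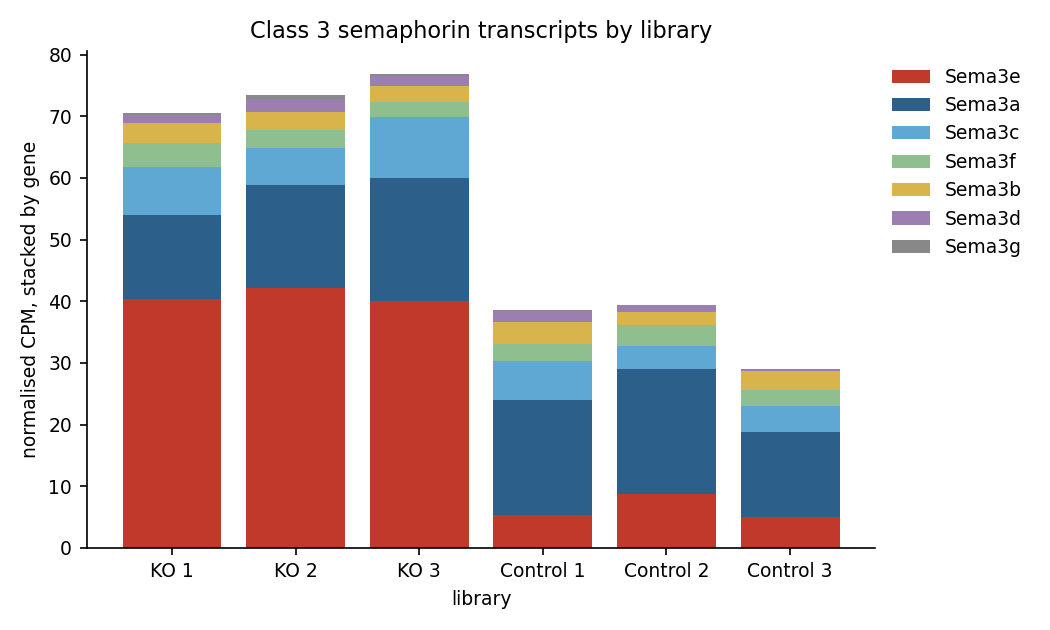
Normalised CPM of the 7 class 3 semaphorin genes stacked for each library, with the 3 Setdb1 KO libraries left of the 3 control libraries. The Sema3e segment spans 40.1 to 42.1 CPM in the KO libraries and 4.99 to 8.77 CPM in the control libraries, while the Sema3a segment spans 13.6 to 19.9 CPM in the KO libraries and 13.9 to 20.2 CPM in the control libraries.

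Sema3e lies in a stretch of chromosome 5 that holds other class 3 genes, and its tested neighbour there did not pass. Of 36 annotated genes overlapping a window of 1 Mb to each side of its start, Sema3a, which starts 899.9 kb before it, was the only one with enough counts to be tested. Sema3d, which lies outside that window, 1.64 Mb before Sema3e from start to start, was too low to test and had 25 counts summed over KO libraries and 16 over control libraries. Of 29 genes overlapping a window of the same size around the Sema5a start, 6 were tested and 1 passed, beside 2.83% of all genes tested. This was Dap, a gene for a protein linked to cell death and autophagy. It starts 1020.5 kb before Sema5a, and only its end reaches into the window. Dap was at 44.3 CPM in KO cells and 28.1 CPM in control cells (log2 fold change 0.66, SE 0.15, edgeR adjusted p = 0.02642). March6, Cct5, Sdc2, Cpq and Ankrd33b, the other tested neighbours, did not pass, with log2 fold changes from -0.07 to 0.69.

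Membrane-bound semaphorins other than Sema5a did not pass. Sema4b was at 23.9, 23.0 and 20.7 CPM in KO libraries, against 22.4, 26.1 and 19.8 CPM in control libraries. Sema4c, a ligand of Plxnb2, was at 28.2, 25.9 and 26.0 CPM in KO libraries, against 29.4, 27.6 and 23.3 CPM in control libraries. Sema4d, the Plxnb1 ligand known from lymphocytes and bone, was at 14.9, 15.0 and 11.7 CPM in KO libraries, against 16.8, 15.0 and 12.2 CPM in control libraries. Their log2 fold changes were -0.01 (95% interval -0.34 to 0.32), -0.00 (-0.31 to 0.30) and -0.08 (-0.49 to 0.32), and the groups overlapped for each. On the linear scale these intervals lie between 0.71-fold and 1.25-fold.

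Sema6a, which binds A-type plexins, was at 62.2, 50.9 and 55.5 CPM in KO libraries, against 54.5, 50.7 and 43.2 CPM in control libraries (log2 fold change 0.18, edgeR adjusted p = 0.489). Sema6d, a Plxna1 ligand in heart development, was at 16.2, 13.6 and 14.9 CPM in KO libraries, against 12.8, 12.1 and 12.2 CPM in control libraries. Its groups did not overlap, but its log2 fold change of 0.26 (SE 0.17) did not pass (edgeR adjusted p = 0.451). Sema7a, which is held in the membrane by a lipid anchor and signals through integrins and Plxnc1, was at 42.0, 36.6 and 41.0 CPM in KO libraries, against 43.5, 50.3 and 41.2 CPM in control libraries (log2 fold change -0.17, edgeR adjusted p = 0.519). Per kilobase of exon it was the most abundant semaphorin in both groups, at 12.1 CPM in KO cells and 13.6 CPM in control cells.

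Among the receptors, Plxna1 and Plxnb2 were the leading plexins and did not pass. Plxna1, a co-receptor for class 3 semaphorins with neuropilins, was at 260.4, 225 and 260.1 CPM in KO libraries, against 254, 250.3 and 209 CPM in control libraries (log2 fold change 0.06, 95% interval -0.20 to 0.33). Unstranded reads of an opposite-strand gene, Gm26811, could enter its count, since that gene overlaps 10.7% of its exon length and the strand setting is not given. The same limit holds for Sema4c, with 7.27% overlapped by D430040D24Rik, and for Plxnb1, with 2.68% overlapped by Gm7628. Plxnb2, the receptor of class 4 ligands, was at 135, 130.2 and 135 CPM in KO libraries, against 137, 116 and 115 CPM in control libraries (log2 fold change 0.12, 95% interval -0.13 to 0.36). Per kilobase of exon, the order was Plxna1 (27.4 CPM in KO cells, 26.3 CPM in control cells), Plxnb2 (17.3 and 15.9 CPM), Plxnd1 (14.1 and 11.2 CPM) and, at most 1.66 CPM in KO cells and 1.62 CPM in control cells, the other plexins.

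Plxna2 was at 33.8, 25.1 and 26.8 CPM in KO libraries, against 32.2, 22.8 and 28.5 CPM in control libraries, and Plxnb1 was at 11.97, 8.21 and 8.01 CPM in KO libraries, against 13.6, 8.98 and 8.50 CPM in control libraries. Both overlapped between groups, with log2 fold changes of 0.03 and -0.16. Plxna3, a receptor partner of Nrp2, was at 6.65, 7.19 and 8.01 CPM in KO libraries, against 10.8, 15.0 and 8.31 CPM in control libraries. The lowest control library lay just above the highest KO library, and its log2 fold change of -0.63 (SE 0.25) did not pass. The edgeR p was 0.022 before adjustment and 0.198 after it.

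The neuropilins differed from each other in their values. Nrp1, the co-receptor of Sema3a and of VEGF, was at 50.8, 37.4 and 42.4 CPM in KO libraries, against 48.3, 41.8 and 35.5 CPM in control libraries (log2 fold change 0.05, 95% interval -0.27 to 0.38). Nrp2, the co-receptor of Sema3f and Sema3c, was at 11.97, 16.6 and 21.9 CPM in KO libraries, against 23.6, 28.8 and 23.3 CPM in control libraries. All KO libraries lay below all control libraries, yet its log2 fold change of -0.57 (SE 0.20, 95% interval -0.99 to -0.14) did not pass. The edgeR p was 0.0121 before adjustment and 0.15 after it. A difference between Nrp1 and Nrp2 in response was not tested.

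Groups did not overlap in 6 of the 20 tested members, upward in Sema3e, Sema5a, Plxnd1 and Sema6d and downward in Nrp2 and Plxna3. Over all genes tested, 24.3% did not overlap, 12.8% upward and 11.5% downward, so the count in the family is near the background.

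**Figure D4:**
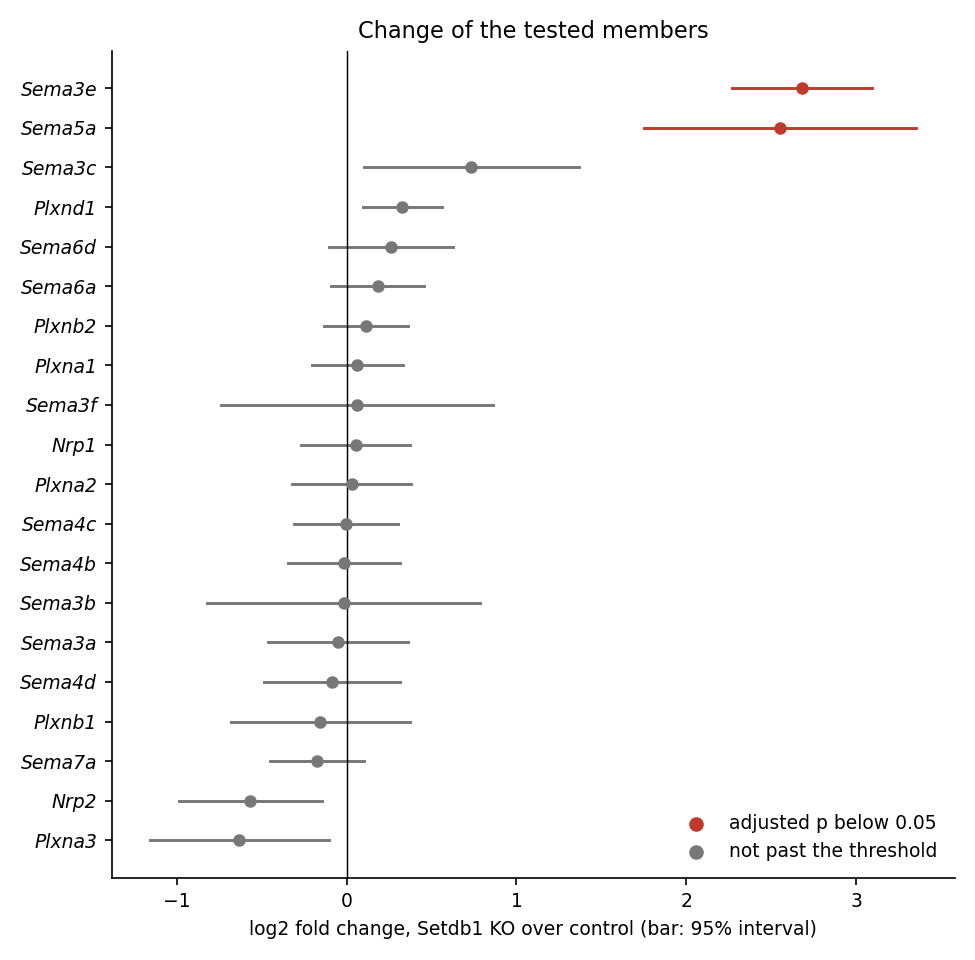
Log2 fold change of Setdb1 KO over control for the 20 tested members (points) with 95% intervals (bars), in red where the adjusted p was below 0.05. Sema3e at 2.68 and Sema5a at 2.55 stand clear of 0, and the other 18 lie between -0.63 and 0.73.

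The 11 members without a test had at most 39 counts summed over 3 libraries. Sema6b had 7, 16 and 16 counts in KO libraries, against 9, 6 and 6 in control libraries, and Sema5b, the paralog of Sema5a, had 8, 5 and 2 in KO libraries, against 1, 1 and 1 in control libraries. Plxna4 had 11, 2 and 9 counts in KO libraries, against 6, 0 and 2 in control libraries. The ratio of summed counts was 2.05 for Sema6b (exact 95% interval 1.18 to 3.67), 5.53 for Sema5b (1.56 to 29.8) and 3.04 for Plxna4 (1.30 to 7.90), for counting error only. The intervals of the remaining untested members spanned 1. In edgeR with no low-count filter, the adjusted p was 0.610 for Sema6b, 0.582 for Sema5b and 0.610 for Plxna4. Plxnc1, the Sema7a receptor, had 6, 11 and 5 in KO libraries, against 9, 1 and 19 in control libraries, and Sema4a had 2, 12 and 3 in KO libraries, against 3, 2 and 11 in control libraries. For both genes the highest library of each group was the one with the most neutrophil transcripts in that group, and the part of those cells in these counts was not tested. Plxnb3, a Sema5a receptor, had 1 count in all KO libraries together and 2 in all control libraries. Sema3d had 5, 11 and 9 counts in KO libraries, against 9, 6 and 1 in control libraries. Sema3g, Sema4f, Sema4g and Sema6c had 2 to 17 counts in each group.

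Markers of other cells in muscle were measured beside these values. Over all genes tested, 2.22% were called higher, and 10.1% were higher and 7.64% lower before adjustment at a limit of 0.05. The 9 mural markers summed to 172 to 222 CPM in KO libraries and 96.2 to 137 CPM in control libraries, 7 were tested, and Tagln and Acta2 passed upward (Tagln alone with DESeq2). Of these 7, 5 had positive and 2 negative log2 fold changes, the lowest -1.15, and before adjustment 4 were higher and 0 lower. The 10 fibro-adipogenic markers summed to 1200.3 to 1765 CPM in KO libraries and 576 to 1337 CPM in control libraries. Of these, 8 were tested, and Col15a1 passed upward. All 8 had positive log2 fold changes, with a median of 0.60, beside 0.01 over all genes tested. Before adjustment, 2 of the 8 were higher and 0 lower. The part of these cells in the Sema3e and Sema5a increases was not tested. The 10 endothelial markers, genes of a cell type known for Plxnd1 and the neuropilins, summed to 12.1 to 15.2 CPM in KO libraries and 5.43 to 14.0 CPM in control libraries. Only Eng and Tek had enough counts to be tested and neither passed, with log2 fold changes of 0.88 (edgeR p 0.03089 before adjustment, 0.227 after it) and 0.06. Pecam1 had 7, 0 and 0 counts in KO libraries, against 7, 2 and 6 in control libraries, and Esam had none in either group. The part of endothelial cells in these results was not tested. The 11 macrophage markers summed to 13.8 to 41.3 CPM in KO libraries and 11.5 to 98.5 CPM in control libraries, the 9 lymphocyte markers to 1.95 to 3.08 CPM and 0.80 to 3.51 CPM, and the 8 Schwann cell markers to 31.5 to 37.2 CPM and 18.0 to 29.4 CPM, most of it Pmp22. With the level of neutrophil transcripts as a term in the fit, the log2 fold change was 2.73 for Sema3e and 2.51 for Sema5a (edgeR adjusted p = 1.135e-07 and 6.950e-04).

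Transcripts of genes linked to semaphorin signalling, and of relatives of such genes, were counted list by list. Each count is to be set beside the shares over all genes tested, 2.22% higher and 0.615% lower after adjustment and 10.1% higher and 7.64% lower before it. Of 7 tested collapsin response mediators and Mical genes, 1 was higher and 0 lower, with a median log2 fold change of 0.16. The gene called was Micall2, whose product links the GTPase Rab13 to actin. It is on the list as a relative of the Mical genes, and a role of it in semaphorin signalling was not tested. Micall2 was at 11.97, 7.39 and 10.6 CPM in KO libraries, against 4.61, 4.18 and 3.14 CPM in control libraries (log2 fold change 1.32, SE 0.28, edgeR adjusted p = 0.01898). DESeq2 did not call it (adjusted p = 0.197), nor did edgeR without KO library 1 (0.117), KO library 3 (0.0795) or control library 2 (0.0642), within a range of 0.0017 to 0.197 over the alternatives.

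None of 24 tested plexin GTPases, exchange factors and adaptors passed in edgeR, and before adjustment 3 were higher and 0 lower at a limit of 0.05 (median log2 fold change 0.01), near the 10.1% over all genes. One of the 3, the GTPase gene Rhod, had enough counts for the test through its KO libraries, at 2.66, 4.31 and 3.32 CPM in KO libraries, against 0.80, 1.25 and 1.66 CPM in control libraries. Rhoa and Cdc42, with the highest CPM of the list, were at 314 ± 16.5 and 236 ± 24.2 CPM in KO cells and at 295 ± 12.6 and 235 ± 20.4 CPM in control cells (SD, n = 3 each). None of 18 tested kinases and actin effectors passed in edgeR, with 1 higher and 0 lower when p was left unadjusted, at a limit of 0.05 (median -0.01), beside the same 10.1% and 7.64%. The actin-severing gene Cfl1 and the kinase gene Rock2 had log2 fold changes of 0.02 and -0.08. Neither did any of 7 tested co-receptors, with 0 of them past 0.05 before adjustment (median -0.09). Among them, Itgb1, the integrin subunit that serves Sema7a, had a log2 fold change of 0.05, and Met, the growth factor receptor that couples to B-type plexins, was at 270 ± 40.0 CPM in KO cells and 322 ± 34.4 CPM in control cells (edgeR adjusted p = 0.356). DESeq2 and limma-voom called no gene of these 3 lists.

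VEGF ligands, which compete for neuropilins, did not pass among 3 tested, with 1 higher and 0 lower when p was left unadjusted, at a limit of 0.05, where 10.1% and 7.64% of all genes lay. Vegfa and Vegfb, with the highest CPM of the list, had log2 fold changes of 0.01 and 0.09. The third tested ligand had a log2 fold change of 1.04 and was the gene higher before adjustment. Of 9 tested proteases that cut semaphorins none passed, with 3 higher and 0 lower when p was left unadjusted, at a limit of 0.05 (10.1% and 7.64% of all genes) and with a median log2 fold change of 0.27, beside 0.01 over all genes. Furin, which cleaves class 3 semaphorins, was at 78.2, 72.3 and 75.0 CPM in KO libraries, against 62.1, 63.5 and 61.1 CPM in control libraries (log2 fold change 0.27, edgeR adjusted p = 0.205). Adam10, which sheds membrane proteins, was at 74.0 ± 5.92 CPM in KO cells and 70.4 ± 3.39 CPM in control cells. DESeq2 and limma-voom called no gene of either list.

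Among the other guidance families, the netrin receptor gene Unc5b was the 1 gene that passed. It was at 15.2, 14.4 and 20.7 CPM in KO libraries, against 6.01, 3.97 and 5.54 CPM in control libraries (log2 fold change 1.69, SE 0.23, edgeR adjusted p = 5.837e-04). It was the 1 of 9 tested Slit, Robo, netrin and Unc5 genes called higher, with 0 lower and a median log2 fold change of 0.19. Over all genes tested, 2.22% were called higher and 0.615% lower. Before adjustment the list also had 1 higher and 0 lower, at a limit of 0.05, beside 10.1% and 7.64% of all genes. Of 7 tested Eph receptors and ephrins, 0 were called in edgeR, DESeq2 or limma-voom, with 0 higher and 1 lower when p was left unadjusted, at a limit of 0.05 (median -0.04), beside 10.1% and 7.64% of all genes. That gene was Efnb2, the ligand ephrin-B2, at 32.2, 35.5 and 35.8 CPM in KO libraries, against 53.3, 55.1 and 41.2 CPM in control libraries (log2 fold change -0.53, SE 0.14, edgeR adjusted p = 0.05856). It passed downward with no low-count filter (0.0257), with structural RNA genes removed (0.0433) and without control library 3 (0.0134), within a range of 0.0134 to 0.257 over the alternatives. Epha2, with the highest CPM of the list, had a log2 fold change of 0.10.

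**Figure D5:**
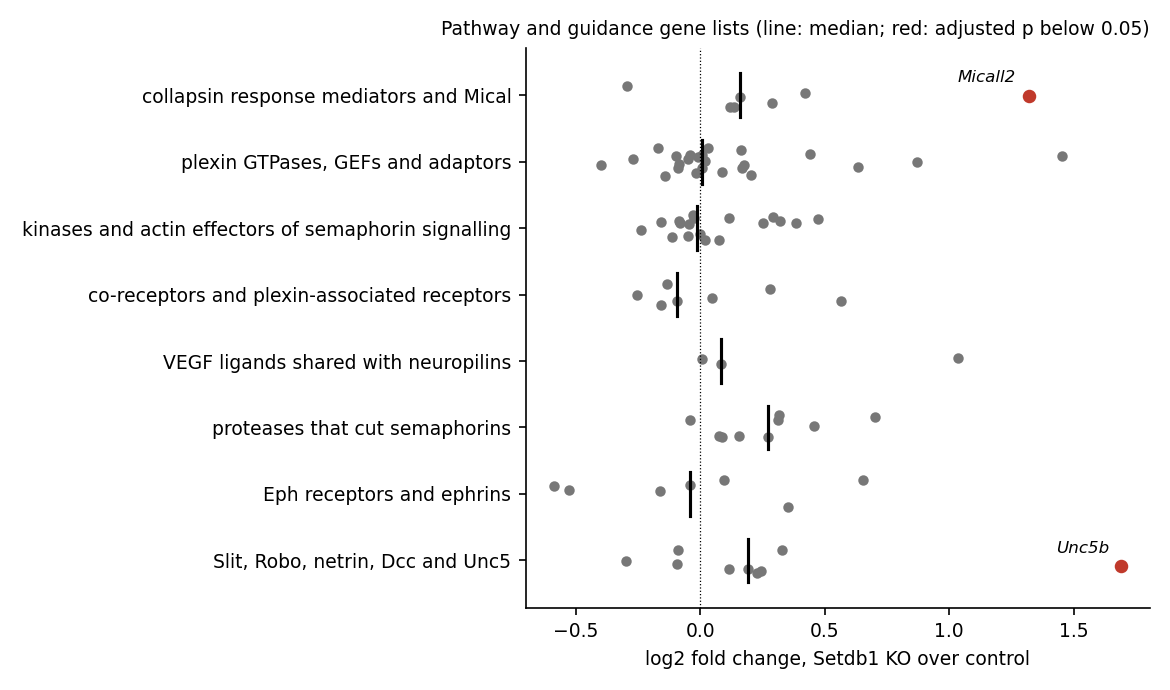
Log2 fold change of Setdb1 KO over control for each tested gene of 8 pathway and guidance lists (points), with the list median as a black line and genes with an adjusted p below 0.05 in red. Micall2 at 1.32 and Unc5b at 1.69 are the 2 genes that passed.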

How the data were processed

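Libraries were made from 400 ng of total RNA depleted of ribosomal RNA and sequenced as paired reads of 75 bases, per the labels' protocols. The labels name both a stranded total RNA kit and a SMARTER kit, so the kit is not settled. STAR, Salmon, DESeq2 1.34.0 and GRCm38 are named in the submitters' processing notes. The counting tool, strand setting and annotation release were not given in the sources used here. Values deposited by the authors are raw whole-number counts for each Ensembl gene. Symbols matched 55141 of 55487 IDs, and the rest held 0.03% of the counts. Coordinates and exon lengths are from GENCODE release M21 (GRCm38), promoters from RefSeq.

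Tests used the two-sided quasi-likelihood method of edgeR 4.0.16 under R 4.3.3, with TMM scaling, robust dispersion and filterByExpr, and p-values were adjusted by Benjamini-Hochberg over 11224 genes (threshold 0.05). SE and 95% intervals were derived from the F statistic. CPM are TMM-normalised, and levels per kilobase divide CPM by the union of annotated exons. Alternatives included DESeq2 1.42.0, limma-voom (limma 3.58.1), other scalings and filters, a neutrophil term, removal of structural RNA genes, and each library left out. The procedure was tested on simulated data. Members and lists were chosen with earlier results of these data known. Every member is given, those with a mean of at least 1 CPM by library. Sema5b, with a mean below that, is given by library too. Of each list, the members that passed are given or, where none did, the 2 with the highest CPM. Genes outside this rule (Rhod, Dap and other neighbours, and markers) are given as context. Python 3.11.15, pandas 2.3.3 and matplotlib 3.10.9 were used. No molecular identifiers are named, so count intervals cover counting error only. Within each group, no library was a copy of another, and libraries of different groups were not compared in this way.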

Additional observations from a re-analysis of the deposited data

How the results depend on the processing

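Sema3e and Sema5a were called higher in all 17 settings, with log2 fold changes of 2.53 to 2.96 and 2.30 to 3.11 and adjusted p up to 5.156e-05 and 0.0123. No other member was called in any setting, so the family count was 2 throughout. Plxnd1 kept a positive log2 fold change of 0.26 to 0.36 (lowest adjusted p 0.105), and Nrp2 and Plxna3 stayed negative (lowest 0.0578 and 0.0863). Over all genes the count of 318 (249 higher, 69 lower) became 511 (373 and 138) with no low-count filter and 184 (147 and 37) with DESeq2, and the causes were not tested. With no filter 34908 genes were tested, and p-values of single genes moved as well. The unadjusted edgeR p went from 9.342e-10 to 3.04e-41 for Sema3e and from 0.008772 to 0.05717 for Plxnd1. The lowest adjusted p of Nrp2 and of Micall2 came from that setting. Leaving out 1 library gave 152 to 345, with 152, 180 and 157 when KO library 1, KO library 2 or control library 2 was left out. The replicate number as a block gave 247, with the same 2 members called. Deviations of same-numbered libraries correlated at 0.14, -0.09 and -0.06, within the range of -0.25 to 0.29 of the other pairs. Such correlations cannot show whether animals were paired, which the labels do not state. Signs of members with small values, such as Sema4c and Nrp1, changed between settings. Counts under about 10 per library limit Sema5a in control cells and the 11 untested members.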

Other observations

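Low-count genes next to the 2 that rose were inspected after their values were seen, and none was tested. Within the Sema3e gene, Gm43519 and Gm43523, 2 provisional genes on the same strand whose exons do not overlap those of Sema3e, held 24 and 15 counts over KO libraries, against 5 and 1 over control libraries. After the end of Sema3e, 14 untested genes within the window held 59 counts over KO libraries, against 11 over control libraries, and 52 of the 59 lay in KO library 1. Before Sema3e, 18 untested genes held 33 counts over KO libraries and 34 over control libraries. Before Sema5a, 19 untested genes held 71 counts over KO libraries and 79 over control libraries. Among them, Snhg18, a noncoding RNA gene that starts 0.1 kb from the Sema5a start on the opposite strand, had 21 counts over KO libraries and 8 over control libraries, and the pseudogene Gm6361 had 0 over KO libraries and 27 over control libraries. After the end of Sema5a, 3 untested genes held 16 counts over KO libraries and 6 over control libraries.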
